A study of Mus musculus with 57 samples.

Results

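Of the 9780 targets in the deposited count table, 44 encode parts of the machinery that puts newly made proteins into the endoplasmic reticulum (ER) and carries them onward in coated vesicles. They were chosen by name alone: Sec11, Sec13, Sec16, Sec22, Sec23, Sec24, Sec31 and Sec61 to Sec63 genes, Ssr1 to Ssr4, the Spcs and Srp genes, the Srp receptor, the Tmed genes and the COPI subunits. The measurements came from the GeoMx Whole Transcriptome Atlas, in which RNA probes carry barcodes that ultraviolet light releases from a chosen square of a tissue section for sequencing. C57BL/6 mice of 8-9 weeks were given caerulein, a peptide that overstimulates the acinar cells and causes pancreatitis, by hourly injection into the abdomen for 8 hours on 2 consecutive days, and 57 regions of fixed pancreas were profiled in 10 groups. The controls, whose handling the labels do not describe further, gave 7 regions. The caerulein groups were sampled after 3 hours (3 regions), 12 hours (6), 24 hours (6), 48 hours (5), 72 hours (4), 5 days (6), 7 days (6), 14 days (7) and 30 days (7), and the labels give no genetic change. The labels do not say whether times run from the first or the last injection.

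Secretory and membrane proteins carry a signal peptide that the signal recognition particle (SRP) binds as it leaves the ribosome. The particle docks on its receptor at the ER, the chain passes through the Sec61 channel with help from the TRAP complex (encoded by the Ssr genes), and signal peptidase removes the signal. Proteins leave the ER in COPII-coated vesicles and return from the Golgi in COPI-coated vesicles, and p24 proteins (Tmed genes) help to sort cargo into both. Acinar cells of the pancreas make and export digestive enzymes in large amounts and depend on every one of these steps.

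Counts per region totalled 1036609 to 5035488 with a median of 2036021, and each region held 585 to 1796 nuclei. The negative probes, which match no mouse transcript, had 42.1 to 186 counts per region, so the level of each target is given as its count divided by that value, and a level near 1 cannot be told from background. Each member was read by 1 probe, and the probe for Srp54a has 3 positions on chromosome 12, and it cannot tell the Srp54 copies apart. Levels are compared here within a gene across groups; between genes they depend on the probe as well as on the transcript. No label says which animal a region came from, and each of 2 tissue arrays held every group. Tests therefore used 20 sums of counts, 1 for each group on each array. The p-values thus rest on 2 sums per group and measure only the spread between these sums. The sums were unequal, with 1 to 4 regions and 1036609 to 9850356 counts each. On array 1 the sums at 3 hours and at 72 hours were 1 region each. Of the 44 members, 28 exceeded 2 times the negative probes in at least 3 of the 57 regions and were tested, beside 2688 targets in all. The other 16 were Copb1, Copb2, Copg2, Sec13, Sec16a, Sec22a, Sec23b, Sec24a, Sec24b, Sec24c, Sec24d, Spcs3, Srp9, Srp72, Tmed9 and Tmed11. Of the 28, Copa, Copg1, Copz1, Sec11a and Sec22b passed only through regions of 3 to 24 hours, where they were high, and Tmed6 only through regions of the other groups, so counts over the tested members lean on the groups that let them in.

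Acinar markers were measured for 10 of 10 listed genes, and their summed level ran from 2970.6 to 4955.6 in control regions, 1275.2 to 1906.1 at 12 hours and 402.7 to 1336.2 at 24 hours. All 10 exceeded 2 times the negative probes in most control regions. Over the same times the 6 measured fibroblast and matrix markers ran from 7.43 to 8.80 in control, 21.8 to 37.0 at 12 hours and 34.6 to 97.6 at 24 hours, and the 8 macrophage markers from 9.29 to 9.95, 13.2 to 18.6 and 17.6 to 44.4. The 4 measured ductal markers ran from 4.62 to 5.17 in control and 7.47 to 10.4 at 12 hours. In each of these 3 lists 0 markers exceeded 2 times the negative probes in most control regions. A sum near the number of genes in a list cannot be told from background. The part of all these markers in the member results was not tested. In such mixed regions fewer cells of a type and less RNA per cell cannot be told apart. One 12-hour region of array 1 stood apart with a summed level of 533.7 for the 6 measured islet markers, against a group median of 15.4. Without it the same number of members, 7, was called at 12 hours.

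In control regions the members were mostly faint. Still, 10 of 44 (22.7%) exceeded 2 times the negative probes in most regions, a higher share than the 6.17% of all targets. The 12-hour number was 19 of 44 (43.2%) against 14.4% of all targets. At 24 hours it was 17 of 44 (38.6%) against 14.2%, and at 30 days 11 of 44 (25%) against 7.07%. The summed level of the 44 members was 76.0 ± 3.86 (SD, n = 7 regions) in control and 93.7 ± 5.75 (n = 6) at 12 hours. It was 90.2 ± 7.44 (n = 6) in the 24-hour regions and 83.1 ± 4.20 (n = 7) in the 30-day regions. The control regions lay between 71.5 and 82.7 and the 12-hour regions between 88.0 and 103.1, with no overlap.

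**Figure D1:**
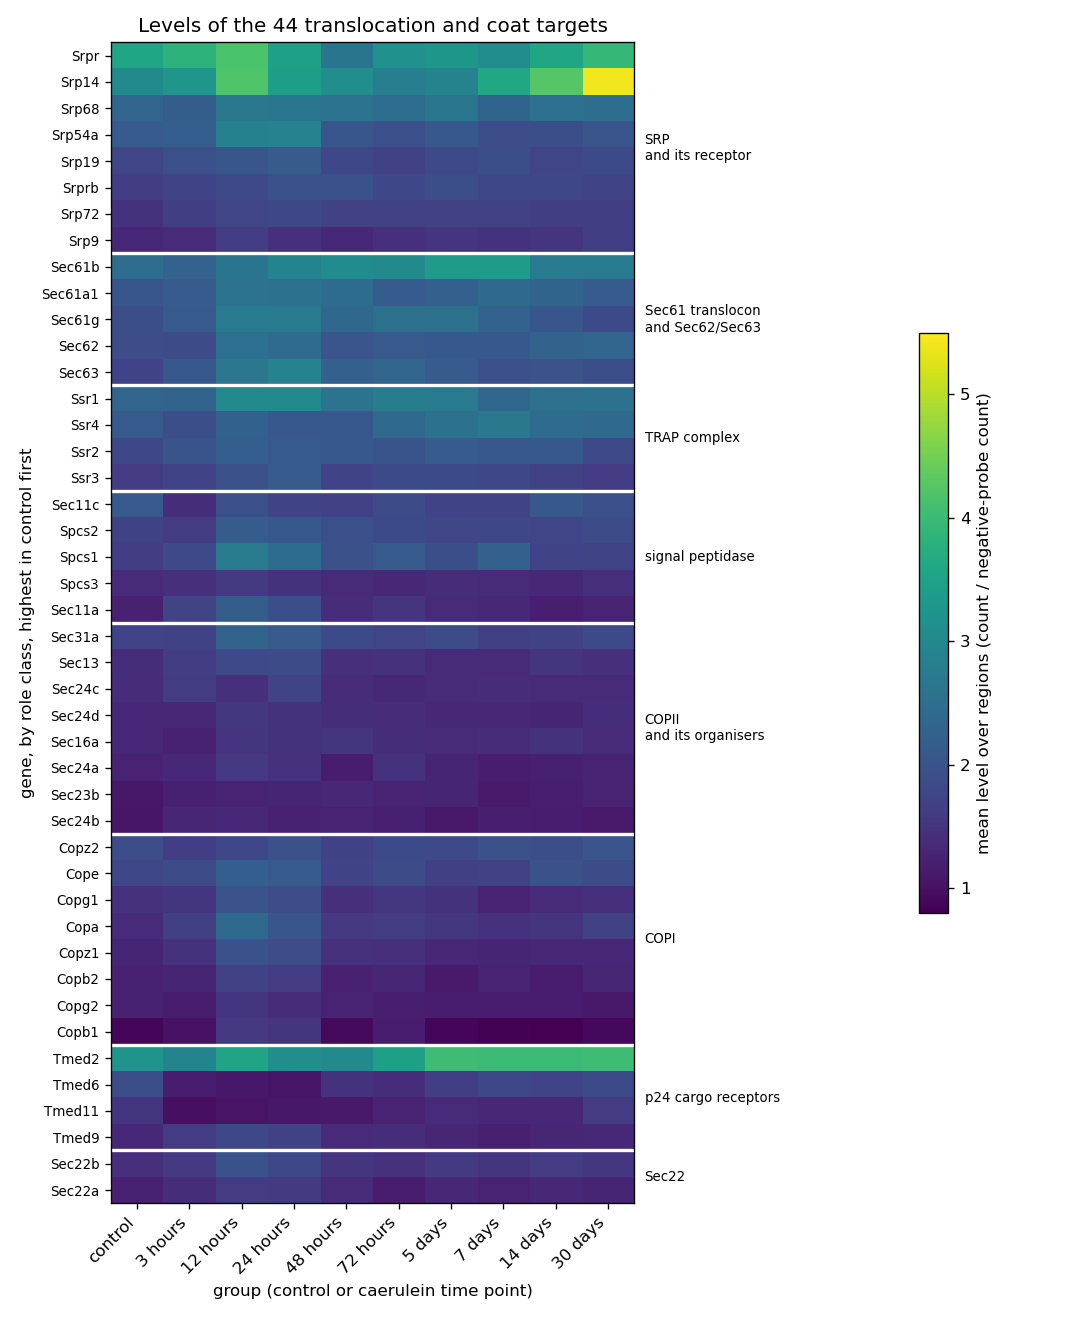
Mean level of each of the 44 members (rows, grouped by role) in each group (columns), as the count divided by the negative-probe count and averaged over regions. Srpr, Srp14 and Tmed2 were the highest in control, and most members were brighter at 12 and 24 hours. Tmed6 and Tmed11 were dimmest from 3 to 24 hours and still dimmer than control at 48 hours.

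The higher levels at 12 and 24 hours were shared by most tested genes. With sums scaled to the negative probes, the median of all 2688 tested genes lay 0.20 above control on the log2 scale at 3 hours, 0.40 at 12 hours and 0.44 at 24 hours, and edgeR's quasi-likelihood test with Benjamini-Hochberg adjustment called 16 members higher and 1 lower at 12 hours. Of all tested genes, 59.6% were called higher and 1.9% lower on that scale. At 24 hours the members counted 14 higher and 1 lower, with 64.1% and 1.82% of all tested genes. The members' counts of 16 and 14 in 28 are lower shares than those of all tested genes, a difference that was not tested. The filter bears on these shares and medians. Of all 9780 targets, 14.4% at 12 hours and 14.2% at 24 hours exceeded 2 times the negative probes in most regions, against 6.17% in control. The tested set thus leans to genes that were high at 12 and 24 hours. Tests below use TMM scaling (trimmed mean of M values), which centres the typical gene on 0, so a fall means a fall relative to the typical gene.

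On the TMM scale few members were called. At 3 hours 0 members were called higher and 2 lower, with 7.66% and 3.76% of all tested genes called in those directions. Copa, Sec11a and Spcs1 were called higher at 12 hours and Tmed6, Sec11c, Copz2 and Ssr4 lower, making 3 and 4 of 28 against 21.8% and 21% of all. At 24 hours Sec63 was called higher, 1 of 28 against 21.8%, and Tmed6, Sec11c, Tmed2, Ssr4, Srpr and Copz2 lower, 6 of 28 against 20.5%. The 12-hour shares and the 24-hour share of higher calls were below those of all tested genes. The 24-hour share of lower calls was close to that of all tested genes. These differences in share were not tested, and with 2 sums per group a member not called may still have changed. At 48 hours 0 were higher (background 0.67%) and Tmed6 and Sec11c, 2 of 28, were lower (background 1%). The median log2 difference of the 28 members was -0.13 at 3 hours, -0.04 at 12 hours and -0.10 at 24 hours, beside -0.02, -0.02 and 0.00 over all tested genes. All 18 calls against control had the same sign on both arrays, as did the 7 calls between 24 hours and 30 days. The calls were made from these same sums, so the agreement of sign is no separate support.

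At later times no member was called by edgeR with TMM scaling and all 20 sums. The count was 0 of 28 at 72 hours (1.08% of all genes, 4 members at an unadjusted p under 0.05 and 1 called by DESeq2), 0 at 5 days (0.372%, 5 members unadjusted), 0 at 7 days (0.0372%, 4 unadjusted), 0 at 14 days (0% called, 1 unadjusted) and 0 at 30 days (0.0372%, 3 unadjusted and 1 by DESeq2). Voom on single regions, which takes regions not tied to animals as replicates, called 1 at each of these 5 times. With total-count scaling edgeR called 20 at 72 hours and 1 at 5 days. Between 3 and 12 hours 0 members were called as well, with 0.781% of all genes and 5 members at an unadjusted p under 0.05. In the test for any difference between the 10 groups 11 of 28 members were called, against 42.1% of all tested genes.

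**Figure D2:**
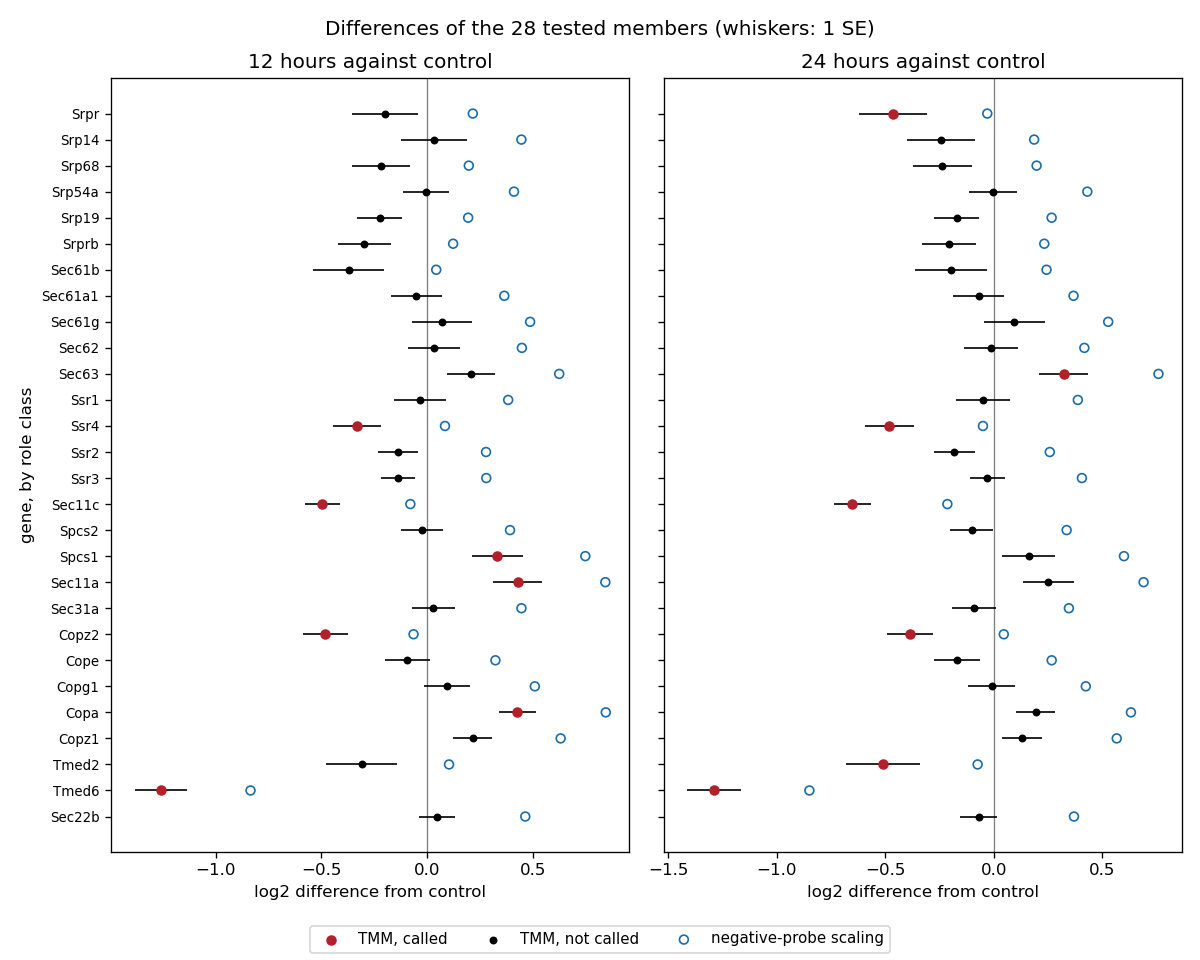
Log2 difference from control of the 28 tested members at 12 hours (left) and 24 hours (right); filled points with whiskers of 1 SE are TMM-scaled, red where called, and open circles are scaled to the negative probes. The open circles lie to the right of the filled points by about the shift of the typical gene, and Tmed6 lies furthest to the left on both scales.

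The p24 receptors held the member that changed most. Tmed6, a p24 protein of the gamma subfamily known for its pancreatic expression, is read by a probe on chromosome 8 from 107065549 to 107065588 (GRCm38.p6, inside the gene). Its level in control regions ran from 1.44 to 2.43 with a median of 1.86 (n = 7). The 3-hour regions read 1.04, 1.13 and 1.29. At 12 hours the lowest, median and highest regions were 0.83, 1.01 and 1.42, and at 24 hours 0.92, 1.02 and 1.36. All 15 regions of these groups lay below every control region, and about as high as the negative probes.

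In the fit Tmed6 fell by 0.90 ± 0.14 (SE) on the log2 scale at 3 hours (adjusted p = 0.000276), by 1.26 ± 0.12 at 12 hours (adjusted p = 6.37e-06) and by 1.29 ± 0.12 at 24 hours (adjusted p = 3.23e-06), 2.44-fold at the last. It was called lower at those times under each of the scalings run, including those in which most genes rose, at -0.69, -0.83 and -0.85 with the negative probes. The level reached that of the negative probes, which limits how large a fold could be measured. At 48 hours the 5 regions read 1.36, 1.47, 1.51, 1.53 and 1.53, and the difference was -0.49 ± 0.12 (adjusted p = 0.0438), a call lost with negative-probe, 75th percentile and total-count scaling and when any sum of the controls, of 48 hours or of 5 to 30 days was left out (adjusted p up to 0.563). At 72 hours the regions read 1.26, 1.36, 1.39 and 1.59 and the difference of -0.52 ± 0.13 did not pass (adjusted p = 0.0767; 0.0204 to 0.431 with a sum left out). From 24 hours to 30 days, when regions ran from 1.40 to 2.44 with a median of 1.83, Tmed6 rose by 1.16 ± 0.13 (adjusted p = 7.10e-06).

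Tmed11, a p24 protein of the alpha subfamily, was too dim to be tested in the main set. Its control regions ran from 1.37 to 1.73 with a median of 1.48. The 3-hour regions read 0.82, 1.02 and 1.12, and the 12-hour and 24-hour regions ran from 0.91 to 1.23 and from 1.02 to 1.26. Like those of Tmed6, all of these lay below the control range and about as high as the negative probes, which limits the size of a fall that can be measured. When all 9780 targets were scaled and tested without the filter, the log2 difference of Tmed11 was -0.66 ± 0.12 at 3 hours (adjusted p = 0.00103), -0.76 ± 0.10 at 12 hours (adjusted p = 1.60e-05) and -0.69 ± 0.10 at 24 hours (adjusted p = 3.38e-05). Tmed11 was also called lower in that fit at 48 hours, at -0.48 ± 0.10 (adjusted p = 0.0256). Its 48-hour means were 1.06 on array 1 and 1.23 on array 2, against 1.55 and 1.45 in control. The 72-hour difference of -0.37 ± 0.11 was not called (adjusted p = 0.272). By 30 days its regions ran from 1.52 to 1.75.

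Members whose regions all lay below the control range were Sec11c, Tmed6 and Tmed11 at 3 hours, 3 of 44 beside 1.29% of all 9780 targets. At 12 hours they were Tmed6 and Tmed11, 2 of 44 beside 0.429%, and at 24 hours the same pair beside 0.368%. In the other direction 2 members, Sec11a and Tmed9, lay wholly above control at 3 hours (7.02% of all targets), 12 at 12 hours (19.2%) and 7 at 24 hours (19%).

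Tmed2, the beta-subfamily p24 protein, was among the highest members. Its control level ran from 2.61 to 3.85 with a median of 3.15. At 3 hours the regions read 2.76, 2.89 and 3.13. Regions at 12 hours ran from 2.94 to 4.08 around 3.62 and at 24 hours from 2.89 to 3.82 around 2.97, overlapping the control range in each case. On the TMM scale Tmed2 fell by 0.51 ± 0.17 at 24 hours (adjusted p = 0.0235), a call absent under the other scalings and turned to 0.08 by total-count scaling. It was also lost without the array 2 sum of the controls or either 24-hour sum (adjusted p up to 0.147). From 24 hours to 30 days, when regions ran from 3.32 to 5.02 around 3.98, it rose by 0.73 ± 0.17 (adjusted p = 0.00303), against 0.34 with negative-probe scaling, where it was not called. Tmed9, an alpha-subfamily member below the filter, had a mean level of 1.32 in control and 1.82 at 12 hours. Without the filter it was not called, at 0.26 ± 0.09 at 12 hours (adjusted p = 0.0545) and 0.16 ± 0.09 at 24 hours (adjusted p = 0.231). That fit was scaled over all targets, so these values are not on the scale of those for Tmed2.

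The ratio of Tmed2 to Tmed6 counts within a region does not depend on how regions are scaled, but from 3 to 24 hours its denominator was at the level of the negative probes, which bounds the ratio from above. Whether the log2 differences of the 2 genes differ was not tested. This pair was picked after its values were seen, so the ratio is a description without a test. It ran from 1.37 to 1.95 in control regions, from 2.42 to 2.64 at 3 hours, from 2.66 to 3.69 at 12 hours and from 2.29 to 3.69 at 24 hours. It stayed wholly above the control range at 72 hours, from 2.06 to 2.80, and at 5 days, from 2.06 to 2.98. At 48 hours it ran from 1.72 to 2.27 and at 7 days from 1.82 to 2.60, overlapping that range. At 14 days it ran from 1.59 to 3.30, across the control range, and at 30 days from 2.01 to 2.37, just above it.

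**Figure D3:**
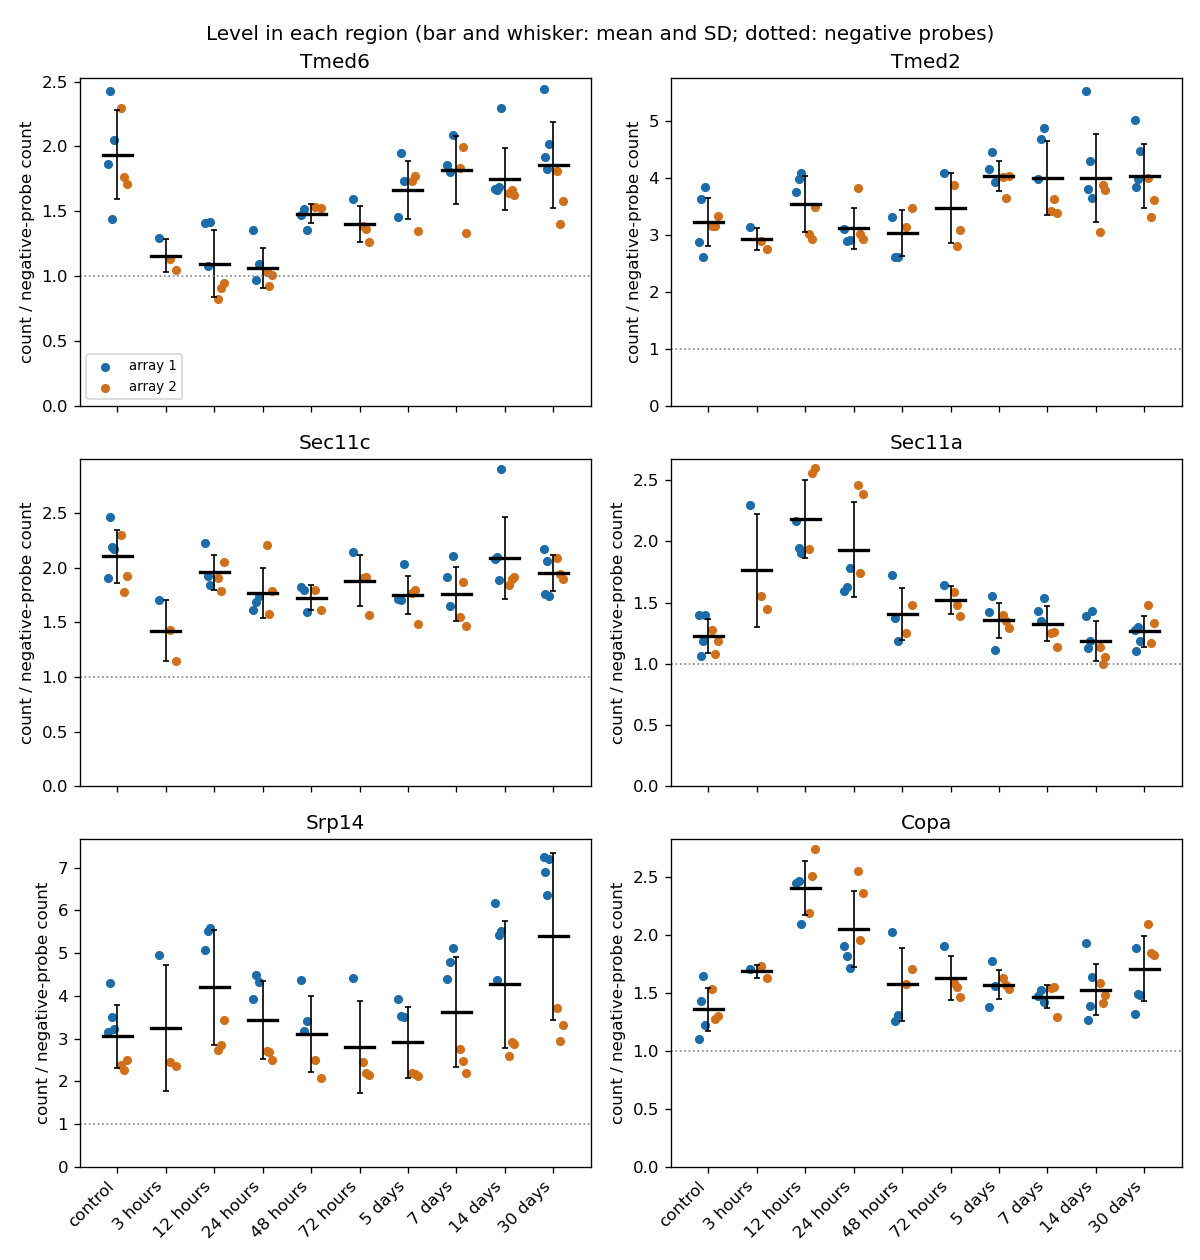
Level of 6 members in each region (points, coloured by tissue array) by group, with the mean and SD over regions; the dotted line at 1 is the level of the negative probes. Tmed6 regions sit on that line from 3 to 24 hours, Sec11c is lowest at 3 hours, Sec11a and Copa peak at 12 hours, and Srp14 is higher on array 1 than on array 2 in every group.

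Signal peptidase cuts with 1 of 2 alternative catalytic subunits, Sec11a or Sec11c, beside the accessory subunits Spcs1, Spcs2 and Spcs3. Sec11c ran from 1.78 to 2.46 in control regions with a median of 2.17. Its 3-hour regions read 1.14, 1.43 and 1.70, all below the control range. At 12 hours it ran from 1.79 to 2.22 and at 24 hours from 1.57 to 2.21, overlapping control.

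Sec11c fell by 0.75 ± 0.09 at 3 hours (adjusted p = 4.70e-05), by 0.50 ± 0.08 at 12 hours (adjusted p = 0.000429), by 0.65 ± 0.08 at 24 hours (adjusted p = 3.16e-05) and by 0.39 ± 0.08 at 48 hours (adjusted p = 0.0202). Scaled to the negative probes the differences were -0.53, -0.08, -0.21 and -0.26, and of these the first alone was called. Total-count scaling called none of the 4 and turned the direction at 12 hours to 0.07 and at 48 hours to 0.07. The 48-hour call was also lost without either control sum, either 48-hour sum or the array 1 sum at 5 days (adjusted p up to 0.333). From 24 hours to 30 days Sec11c rose by 0.53 ± 0.08 (adjusted p = 0.000215), or 0.14 with the negative probes, where it was not called.

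Sec11a was near background in control, with regions from 1.06 to 1.40 around 1.19. The 3-hour regions read 1.44, 1.55 and 2.29. Those at 12 hours ran from 1.91 to 2.59 around 2.05 and those at 24 hours from 1.59 to 2.46 around 1.76. The regions of all 3 times lay above every control region, as did those of 7.02%, 19.2% and 19% of all targets. Sec11a rose by 0.43 ± 0.12 at 12 hours (adjusted p = 0.00948), and by 0.84 with the negative probes. The differences of 0.31 ± 0.13 at 3 hours (adjusted p = 0.150) and 0.25 ± 0.12 at 24 hours (adjusted p = 0.0966) did not pass. Both moved with single sums: the 3-hour value was 0.18 without the array 1 sum of that time and 0.54 without the array 2 sum (adjusted p = 0.0498), and the 24-hour value 0.38 (adjusted p = 0.0281) and 0.07 likewise. Sec11a was tested only because its regions at 3 to 24 hours exceeded the filter. Without the filter the 12-hour difference was called too, at 0.64 (adjusted p = 0.000351), but on another scale. That fit took its TMM scaling from all targets, so its values are not relative to the typical tested gene. Sec11c also stood higher in it, at -0.29 at 12 hours against -0.50 in the main fit. The same sums entered both fits, so the call without the filter is no separate support. The rise at 12 hours was not called without the array 2 sum of the controls or of the 12-hour group, with an adjusted p of up to 0.186.

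Within regions, where Sec11a in control was close to the negative probes, its counts were 0.43 to 0.73 of Sec11c counts in control. The ratio was 1.09 to 1.35 at 3 hours, 0.97 to 1.43 at 12 hours and 0.97 to 1.33 at 24 hours, none overlapping control. It then ran from 0.70 to 0.95 at 48 hours and from 0.77 to 0.88 at 72 hours. At 5 days it ran from 0.55 to 0.91 and at 7 days from 0.67 to 0.82, and it lay within 0.49 to 0.71 at 14 and 30 days. Both arrays showed the difference, with control means of 0.59 and 0.59 and 12-hour means of 1.01 and 1.24 on arrays 1 and 2. The pair was also picked with its values known, and no test was made.

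**Figure D4:**
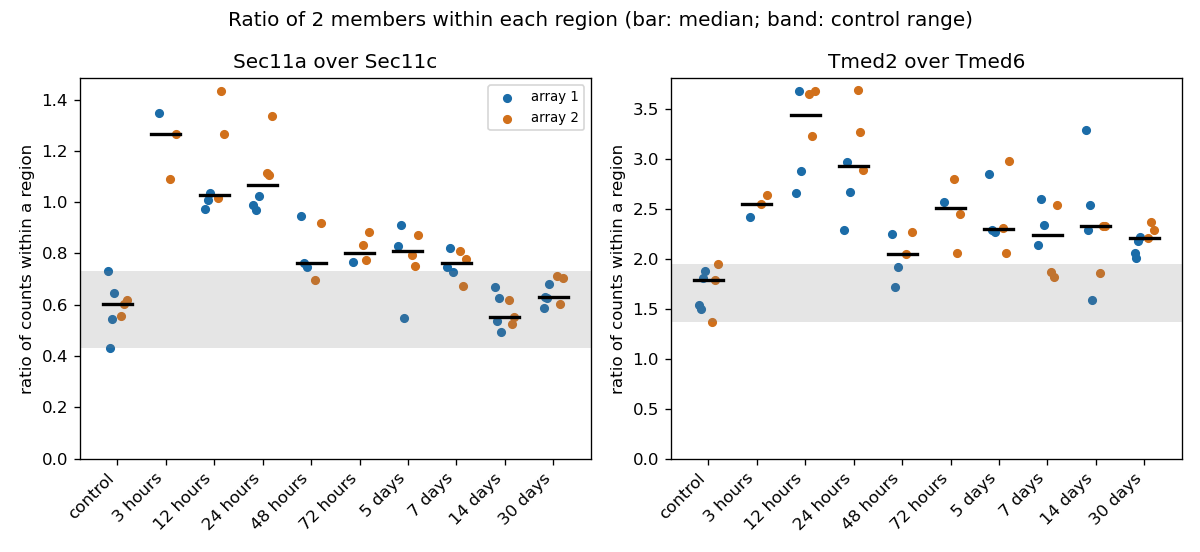
Ratio of counts of 2 members within each region (points, coloured by tissue array), with the group median as a bar and the control range as a grey band. Sec11a over Sec11c is above the band in all regions from 3 to 24 hours and at 72 hours, and within it at 14 and 30 days. Tmed2 over Tmed6 is above it from 3 to 24 hours, at 72 hours, at 5 days and, just above it, at 30 days.

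Spcs1 had a mean level of 1.64 ± 0.18 (SD, n = 7) in control, 2.73 ± 0.36 (n = 6) at 12 hours and 2.45 ± 0.51 (n = 6) at 24 hours. It rose by 0.33 ± 0.12 at 12 hours (adjusted p = 0.0360), but was not called without the control sum of either array, the array 2 sum at 12 hours or the array 1 sum at 5 days (adjusted p up to 0.397). Spcs2 was tested and not called at any time, and Spcs3 was too dim to test.

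The SRP and its receptor counted 8 members, of which 6 were tested. None was called at 3 or 12 hours, and at 24 hours Srpr alone was called, as lower. Srpr encodes the receptor subunit that binds the particle and was the highest member in control, with regions from 2.99 to 3.85 around 3.71. The 12-hour regions ran from 3.70 to 4.53, the 24-hour regions from 3.05 to 3.81, and those at 48 hours read 2.17, 2.50, 2.57, 2.85 and 3.06. Of those 5, 4 lay below the control range. Srpr fell by 0.46 ± 0.16 at 24 hours (adjusted p = 0.0254), a call absent under the other scalings and turned to 0.12 by total-count scaling. The -0.56 ± 0.16 at 48 hours did not pass (adjusted p = 0.0888), except with DESeq2 (adjusted p = 0.00950) and voom on regions (adjusted p = 0.000116). The voom p takes regions not tied to animals as replicates and measures spread between regions. Without 1 of the 48-hour sums the -0.56 became -0.39 or -0.74. The 24-hour call was lost without any 1 of the control or 24-hour sums (adjusted p up to 0.149). From 24 hours to 30 days it rose by 0.55 ± 0.16 (adjusted p = 0.00983), or 0.17 with the negative probes, where it was not called, and lost its call without the array 2 sum of either time (adjusted p up to 0.0899).

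Srp14, a small subunit of the particle's Alu domain, differed strongly between the arrays. Control regions read 3.16, 3.22, 3.50 and 4.31 on array 1 and 2.27, 2.39 and 2.50 on array 2. The array 2 mean was 0.48 to 0.67 of the array 1 mean in all 10 groups. At 24 hours the regions read 3.94, 4.32 and 4.50 on array 1 and 2.49, 2.69 and 2.71 on array 2. The 30-day regions read 6.37, 6.91, 7.21 and 7.26 on array 1, all above control, and 2.94, 3.33 and 3.71 on array 2, also above the controls of that array.

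With array as a term, Srp14 rose by 0.89 ± 0.16 from 24 hours to 30 days (adjusted p = 0.000449), 0.97 on array 1 and 0.80 on array 2. It was called in that comparison under each scaling, at 0.51 with the negative probes. Against control the 30-day difference of 0.65 ± 0.16 did not pass in edgeR (adjusted p = 0.303) but did in DESeq2 (adjusted p = 0.0121). It also passed in voom on regions (adjusted p = 3.37e-05), where regions not tied to animals count as replicates. That p measures spread between regions, not between animals. The tested members Srp19, Srp54a, Srp68 and the receptor anchor Srprb were not called in any comparison.

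The ER stress factors XBP1 and ATF6 act on promoters through short elements, which were searched on both strands of the RefSeq windows (GRCm38.p6) from 250 bases before to 50 after each start. Of the 44 members 36 have a window. None held the ER stress response element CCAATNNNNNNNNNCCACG, found in 0.137% of all genes with a window, or ERSE-II, ATTGGNCCACG, found in 0.0444%. The core of the unfolded protein response element, TGACGTG, was present in 4 of 36, or 11.1%, against 2.22% of all genes with a window and 2.98% of tested genes. These were Srpr, Copb1, Sec24d and Copb2, in the last after the start. The sites before the start are shown with up to 20 bases on each side, the element or its reverse complement in capitals, to place them beside Srpr's values; Copb1 and Sec24d were among the untested members.
Srpr, plus strand, chr9:35211170-35211202: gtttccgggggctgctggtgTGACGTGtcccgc
Copb1, minus strand, chr7:114254681-114254727: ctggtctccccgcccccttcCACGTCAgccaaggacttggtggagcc
Sec24d, plus strand, chr3:123267450-123267495: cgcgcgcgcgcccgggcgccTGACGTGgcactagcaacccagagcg
The start used for Sec24d lies inside the annotated gene, which begins at chr3:123264801. A match in letters is not evidence of binding. Among the holders, Srpr was called lower at 24 hours, and the other 3 were not tested in the main set. Without the filter Copb1 was called higher at 12 hours (adjusted p = 0.00556), when its regions ran from 0.99 to 2.11. Its control regions, from 0.69 to 1.15, were not above the negative probes, so no size is given for the difference. Copb2 (0.26 ± 0.10, adjusted p = 0.0573) and Sec24d (0.07 ± 0.09, adjusted p = 0.623) were not called in that fit.

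All 5 measured genes of the Sec61 channel and its partners were tested. Sec63, an ER membrane co-chaperone of the channel, ran from 1.50 to 2.14 in control regions. Of all 9780 targets, 19.2% lay wholly above control at 12 hours and 19% at 24 hours. Sec63 did so too, from 2.3 to 3.12 at 12 hours and from 2.52 to 3.35 at 24 hours. It rose by 0.32 ± 0.11 at 24 hours (adjusted p = 0.0291), or 0.76 with the negative probes, and was not called without the control sum of either array or the array 2 sum at 24 hours (adjusted p up to 0.287). Sec62, which works with Sec63, ran from 1.59 to 2.28 around 1.86 in control and from 2.26 to 2.82 around 2.52 at 12 hours, and was called at no time. Sec61a1, the channel itself, and Sec61g, a small subunit, were not called either.

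Sec61b, the other small subunit, was the highest of this class in control, with regions from 1.88 to 2.84 around 2.58. The 12-hour regions ran from 2.06 to 3.22, those at 48 hours read 2.87, 2.91, 2.96, 3.20 and 3.53, and those at 5 days ran from 2.85 to 4.12. All 5-day regions lay above every control region by a narrow margin, as did those at 48 hours. Of the 44 members, 2 lay wholly above control at 48 hours and 1 at 5 days. The share of all targets that did so was not computed for these times. Sec61b differed between the 10 groups (adjusted p = 0.00922), but no single time passed against control in edgeR: the differences were -0.37 ± 0.17 at 12 hours (adjusted p = 0.0807), 0.36 ± 0.17 at 5 days (adjusted p = 0.625) and 0.38 ± 0.17 at 7 days (adjusted p = 0.621). Without the array 1 or the array 2 sum of the controls these became -0.56 (adjusted p = 0.0404) or -0.17 at 12 hours, 0.18 or 0.58 at 5 days and 0.19 or 0.59 at 7 days. The 12-hour value also passed without either 72-hour sum, with DESeq2 and with voom on regions (adjusted p = 0.0380 to 0.0485), and voom called the 5-day and 7-day values. It turned to 0.04 with negative-probe and 0.20 with total-count scaling.

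All 4 TRAP subunits were tested and 1, Ssr4, was called against control. Ssr4 ran from 1.86 to 2.60 around 2.05 in control, from 1.96 to 2.76 at 12 hours and from 1.83 to 2.40 at 24 hours, overlapping throughout. It fell by 0.33 ± 0.11 at 12 hours (adjusted p = 0.0265) and by 0.48 ± 0.11 at 24 hours (adjusted p = 0.00405), but with the negative probes the values were 0.08 and -0.05 and were not called. Leaving out any control or 12-hour sum ended the 12-hour call (adjusted p up to 0.207), and leaving out the array 2 sum at 24 hours the other (adjusted p = 0.0992). From 24 hours to 30 days Ssr4 rose by 0.60 ± 0.11 (adjusted p = 0.000720), or 0.22 with the negative probes, not called. Ssr1, the highest of the class in control, ran from 1.90 to 2.70 around 2.35 there and from 2.69 to 3.54 around 3.08 at 12 hours, and was not called. Ssr2 ran from 1.66 to 2.16 in control and from 1.83 to 2.62 at 12 hours. It was called for any difference between groups (adjusted p = 0.0415) and at no single time, and Ssr3 was not called.

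Of 8 COPII members, Sec31a alone passed the filter. Sec31a, which with Sec13 forms the outer coat, ran from 1.51 to 2.17 around 1.61 in control and from 2.11 to 2.74 around 2.24 at 12 hours. Its log2 difference was 0.03 on the TMM scale and it was called at no time. The 4 Sec24 genes, which encode cargo-binding subunits of the inner coat, had mean levels between 1.08 and 1.41 in control and between 1.35 and 1.59 at 12 hours. None was called at 12 hours when the filter was dropped, with log2 differences from -0.17 to 0.13 (SE from 0.09 to 0.11). That fit was scaled over all targets, so these values are not on the scale of Sec31a's 0.03. Sec22b, a SNARE protein of ER and Golgi membranes, ran from 1.34 to 1.58 in control and from 1.73 to 2.28 at 12 hours and was not called, and Sec22a was not tested.

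Of 8 COPI members 5 were tested, and Copa and Copz2 were called in opposite directions at 12 hours. Copa, the alpha subunit of the outer coat, ran from 1.10 to 1.65 around 1.30 in control. The 3-hour regions read 1.62, 1.70 and 1.73, and the 12-hour and 24-hour regions ran from 2.09 to 2.74 and from 1.71 to 2.55. At the later 2 times they lay above every control region, as did those of 19.2% and 19% of all targets. Copa rose by 0.43 ± 0.09 at 12 hours (adjusted p = 0.00190), 0.43 on array 1 and 0.42 on array 2, and was called under each scaling, at 0.84 with the negative probes. At 24 hours the difference of 0.19 ± 0.09 did not pass (adjusted p = 0.0963), while with the negative probes it was 0.63 (adjusted p = 0.000501). Copa was also tested only because of its regions at 3 to 24 hours. Without the filter its 12-hour difference was 0.63 (adjusted p = 0.000111). That value came from the same sums with scaling over all targets, so it is no separate support.

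Copz2, the less common zeta subunit, ran from 1.69 to 2.31 around 1.82 in control, from 1.52 to 2.17 at 12 hours and from 1.65 to 2.19 at 24 hours, overlapping throughout. Relative to the typical gene it fell by 0.48 ± 0.11 at 12 hours (adjusted p = 0.00271) and by 0.39 ± 0.11 at 24 hours (adjusted p = 0.00962), but with the negative probes the values were -0.07 and 0.05 and with total-count scaling 0.08 and 0.20. From 24 hours to 30 days it rose by 0.43 ± 0.11 (adjusted p = 0.00492), a direction that total-count scaling turned to -0.04. The calls were lost without the array 2 sum at 12 hours (adjusted p = 0.0803), at 24 hours (adjusted p = 0.216) and, for the last comparison, without the array 2 sum of either time (adjusted p up to 0.149). Cope, Copg1 and the other zeta subunit Copz1 were not called.

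The comparison of 30 days with 24 hours addressed the late state of the tissue relative to the acute phase. It called 7 of 28 higher and 0 lower, against 20.3% and 21.1% of all tested genes. The 7 were Tmed6, Srp14, Tmed2, Ssr4, Srpr, Sec11c and Copz2. The 24-hour sums also enter the comparison of 24 hours with control, so the comparisons share samples. The median of the 28 members was 0.16, beside -0.01 over all tested genes.

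Neighbouring genes of the pathway, in lists too short to be set above or below the rest, are counted beside all tested genes, of which 21.8% were called higher and 21% lower at 12 hours and 21.8% and 20.5% at 24 hours. Of 12 listed oligosaccharyltransferase genes, which encode the enzyme that adds sugar chains at the channel, 6 were tested. At 12 hours 1 was called higher, Ost4 at 0.56 ± 0.14 (adjusted p = 0.00482), and at 24 hours 1, Stt3a at 0.42 ± 0.13 (adjusted p = 0.0202). Of 24 other insertion and channel partners 4 were tested, and Tram1 alone was called, lower by -0.32 ± 0.12 at 12 hours (adjusted p = 0.0359), a sign that turned to 0.10 with the negative probes and 0.25 with total-count scaling. Of 15 coat GTPases and exit-site factors 10 were tested. At 12 hours 3 were higher and 0 lower, and at 24 hours 2 were higher and 1 lower. The largest were Arf1, a GTPase that recruits COPI, at 0.48 ± 0.15 at 12 hours (adjusted p = 0.0187) and Arf4 at 0.47 ± 0.13 at 24 hours (adjusted p = 0.0114).

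Of 28 cargo receptors, tethers and fusion genes 11 were tested. The cargo receptor Surf4, the only 1 called higher at 12 hours, rose by 0.40 ± 0.10 (adjusted p = 0.00715), while Mcfd2, the partner of the lectin receptor Lman1, fell by 0.49 ± 0.11 at 24 hours (adjusted p = 0.00367), which turned to 0.10 with total-count scaling. Of 12 secretory regulators 8 were tested, with 2 higher and 2 lower at 12 hours and 1 higher and 2 lower at 24 hours. The 2 lower at 24 hours were Creb3l1 and Atf6, which were also the 2 called lower at 3 hours. Xbp1, a transcription factor that induces many secretory pathway genes, rose by 0.96 ± 0.21 at 12 hours (adjusted p = 0.00222), and Eif2ak3, the ER stress kinase PERK, by 0.73 ± 0.15 at 24 hours (adjusted p = 0.00180).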

How the data were processed

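The authors deposited a table of expected counts, the deduplicated probe counts per target and region. Members held whole numbers to within 1e-06, and 4 other rows with fractions were rounded. The deposited 75th-percentile-normalised table (a signal) served to recompute control levels, where its ratios were the same by construction. Per the file headers, the region summary gives nuclei and raw reads as counts and sequencing saturation in percent (94.6 to 96.3). The submitters' processing notes name limma and mm10, without roles.

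Regions were grouped by the labels, and counts of a group on an array were added. The 20 sums were scaled by TMM over 2688 tested genes and modelled by group and array in edgeR 4.0.16 under R 4.3.3 (quasi-likelihood test, 9 residual degrees of freedom, biological coefficient of variation 0.111). Genes at an adjusted p under 0.05 were called, and log2 differences carry the SE. The array, taken from the region names in the labels' descriptions, stayed in the fit as a block; replicate numbers in the sample titles count regions within a group and paired nothing. Alternatives were other scalings, DESeq2 1.42.0, no filter, no block, limma 3.58.1 voom on regions, and each sum left out.

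Members and lists were chosen with earlier results of these data known. Members given in full were, per role class, the 2 with the smallest p for any difference between groups and the highest in control; any called member could be named, and neighbours by the 2 largest called differences per list. Values of Tmed11, Tmed9, Copb1 and the pairs of members were chosen after they were seen. Protein sequences were not used here.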

Additional observations from a re-analysis of the deposited data

Results flagged for a closer look

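The region values of 15 members were examined for a highest or lowest region far from the rest of its group, in 135 pairs of gene and group. Dixon's test set 11 apart, beside the 5% that chance gives. Of these, 3 were the same 24-hour region of array 2, the highest of its group for Sec11c (2.21, next 1.79), Ssr1 (4.10, next 2.99) and Tmed2 (3.82, next 3.1). Another 3 were the same 14-day region of array 1, for Sec11c (2.90, next 2.10), Ssr1 (3.27, next 2.52) and Tmed6 (2.29, next 1.69). A 12-hour region of array 1 was highest for Sec31a (2.74, next 2.31) and Ssr4 (2.76, next 2.25). A 7-day region of array 2 was lowest for Sec31a (1.39, next 1.66) and Tmed6 (1.33, next 1.81). For Srp14 at 72 hours the highest region (4.42, next 2.45) was the only one of that group on array 1, the array on which Srp14 was higher in all groups. The causes were not tested.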

How the results depend on the processing

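Counts of called members depended on the scaling, and with 2 sums per group also on single sums. With negative-probe scaling 17 were called at 12 hours, 15 at 24 hours, 0 at 48 hours and 11 between 24 hours and 30 days. Total-count scaling called 5 (3 hours), 21 (12 hours), 22 (24 hours), 21 (48 hours), 20 (72 hours), 1 (5 days), 15 between 24 hours and 30 days and 19 for any difference; 75th percentile scaling called 0 at 48 hours. Without the filter, which put all 44 members to the test, 11 were called at 12 hours, 1 at 48 hours and 11 between 24 hours and 30 days. Scaling in that fit ran over all targets, so its values are not relative to the typical tested gene. DESeq2 called 4 at 3 hours, 1 at 72 hours and 1 at 30 days, and voom on regions 4 at 3 hours and 1 each at 72 hours, 5 days, 7 days, 14 days and 30 days. Without the replicate block (the array as a shared block) 4 were called at 24 hours, 1 at 48 hours and 5 for any difference. Leaving out 1 sum at a time gave 2 to 4 (3 hours), 3 to 8 (12 hours), 2 to 7 (24 hours), 0 to 2 (48 hours), 0 to 1 (72 hours), 5 to 9 between 24 hours and 30 days and 7 to 13 for any difference, and 0 elsewhere. The array 2 sums of the controls, 12 hours and 24 hours gave the lowest counts at 12 and 24 hours, 4 without the controls at either time. The direction turned with negative-probe scaling for Ssr4 (0.083) and Sec61b (0.042) at 12 hours and Copz2 (0.047) at 24 hours, and with total-count scaling for Copz2 (0.084), Sec11c (0.072), Ssr4 (0.23) and Sec61b (0.20) at 12 hours, Srpr (0.12), Copz2 (0.20), Tmed2 (0.080) and Ssr4 (0.10) at 24 hours, Sec11c (0.074) at 48 hours and Copz2 (-0.041) between 24 hours and 30 days. Leaving out the islet-rich 12-hour region, an alternative chosen after seeing the data, kept all 35 gene results on their side of the threshold. The levels near 1 limit what depth can show for most members.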
